A study of Mus musculus with 6 samples.

Results

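Potassium channel genes, whose mouse symbols begin with Kcn, were examined in fully grown oocytes that lacked Ring1, with and without deletion of Rnf2 in the growing oocyte. Members were the genes of the deposited table whose symbol is Kcn followed by letters and a number. Of 24028 genes in the table, 91 were taken, and 1 further matching row was left out by the rule. The study asks how Polycomb proteins shape chromatin in oocytes and the embryos that follow, and Ring1 and Rnf2 encode the RING-finger ubiquitin ligases of Polycomb repressive complexes. The double-knockout group (dKO, 3 libraries) had the genotype Ring1 -/-; Rnf2 f/f; Zp3-cre, in which the Zp3 promoter drives Cre in growing oocytes. The control group (3 libraries) had the genotype Ring1 -/-; Rnf2 f/f without Zp3-cre, so both groups lack Ring1 and every comparison below concerns the further loss of Rnf2. No library with intact Ring1 and none with Zp3-cre alone was analysed here. Both groups were on a mixed FVB, 129/Sv and C57BL/6J background, and each library came from 15 oocytes at the germinal vesicle stage, pooled from 1 female of approximately 3 months. Because the libraries are bulk pools, a change in some of the oocytes and a change in the RNA of every oocyte cannot be told apart, and neither can fewer cells of a type and less RNA per cell.

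Potassium channels let potassium ions leave or enter the cell and so set the resting membrane potential. The pore-forming subunits fall into voltage-gated, inward-rectifier, tandem-pore-domain and calcium- or sodium-activated families, and several families have auxiliary subunits that alter gating or transport to the membrane. Some voltage-gated relatives are electrically silent: they form no channel alone and change the properties of the Shab-type pore subunits with which they assemble. Many of these genes are best known from neurons and muscle, and developmental and tissue-specific genes with CpG-rich promoters are typical targets of Polycomb repression.

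The labels were checked first on the targeted genes. Rnf2 was measured at 53.7, 46.8 and 48.2 FPKM (fragments counted per kilobase of transcript, scaled to the mapped fragments of the library) in control libraries 1 to 3 and at 14.8, 8.44 and 5.31 FPKM in dKO libraries 1 to 3. All 3 dKO values lay below all 3 control values, and the difference was -2.37 ± 0.30 (standard error) on the log2(FPKM + 1) scale (limma adjusted p = 0.000696, n = 3 and 3). Ring1 was low in both groups, with group means of 0.0498 FPKM (controls) and 0.121 FPKM (dKO) (limma adjusted p = 0.673). The dKO libraries held more genes at 1 FPKM or above (11188 to 11717) than the controls (10251 to 10524), and their depth, read from the step size of low values relative to control 1, was 0.662 to 1.08 against 0.905 to 1.02. The dKO libraries shared 1 index and the controls another, and the index and the genotype cannot be told apart. The 12 oocyte markers summed to 10110 to 10761 FPKM in controls and 7439 to 8564 FPKM in dKO, with 4 of 12 lower (Bmp15, Ooep, Mos and Kit) and 1 higher (Dppa3). Over all tested genes 7.04% were lower and 14.0% higher. Of 16 alternative settings the call held in 7 for Dppa3, 10 for Ooep, 11 for Mos and 13 for Kit. With no filter on low values 1 of the 12 was lower (Kit) and none was higher. Granulosa and cumulus markers summed to 26.7 to 32.9 FPKM and 50.1 to 52.1 FPKM, with 7 of 14 tested and 4 higher (Fshr, Inhba, Wt1 and Nr5a2), while Foxl2 averaged 0.0596 and 0.347 FPKM, Amh 0.692 and 0.346 FPKM and Amhr2 0.0518 and 0.0319 FPKM. Fshr, Inhba and Wt1 were under 1 FPKM in every control. Cyp19a1 averaged 9.94 and 5.78 FPKM, with all dKO values below all controls, and was not called (limma adjusted p = 0.05004). With no filter on low values 3 of the 14 were higher and none lower, and Inhba was not called (0.0712). Under quantile normalization the calls of Inhba (0.1415) and Wt1 (0.155) were lost. Theca and stroma markers summed to 2.07 to 4.33 FPKM and 7.46 to 12.9 FPKM, of which 2 of 12 were tested and 1 rose (Nr2f2, under 1 FPKM in every control). With no filter on low values 4 of the 12 rose, the others being Dcn (0.207 and 1.41 FPKM), Pdgfra (0.0757 and 0.578 FPKM) and Col1a1 (0.00472 and 0.138 FPKM), none fell, and Cyp17a1 averaged 0.0713 and 0.0361 FPKM. Blood, immune and endothelial markers summed to 26.02 to 34.3 FPKM and 23.4 to 27.4 FPKM, with 3 of 12 tested and 1 lower (Pecam1), and with no filter none of them was called. Hbb-b1 was listed at 0 in all 6 libraries, Ptprc was at 0 in the controls and at 0.0196, 0.0321 and 0.0298 FPKM in dKO, Kdr averaged 0.424 and 1.46 FPKM, and Lyz2 was under 0.1 FPKM except in dKO 3 (2.85 FPKM). The part of these marker differences, of depth and of the index in the channel results was not tested.

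Oocytes of both genotypes carried a small set of channel transcripts at appreciable level, and the dKO libraries carried more of them, as they did of all genes. In the controls 16 members were at 1 FPKM or above in each library, and in dKO libraries 1 to 3 there were 22, 24 and 24. Over all genes, 10251 to 10524 were at that level in the controls and 11188 to 11717 in the dKO libraries. By group mean, 10481 of all genes reached 1 FPKM in controls and 11663 in dKO, where 16 and 24 members did. By group mean, 14 members reached 1 FPKM in both groups, 2 in controls alone (Kcnip2 and Kcnip4) and 10 in dKO alone (Kcnd3, Kcna1, Kcnb2, Kcna5, Kcng1, Kcnk5, Kcnk2, Kcnn3, Kcnip1 and Kcnab2). Of the 91 members, 60 stayed under 1 FPKM in every library, and 7 of those were listed at 0 throughout (Kcne4, Kcne1, Kcnmb4, Kcnj1, Kcnj4, Kcnk16 and Kcna10). The genes with the highest mean over all 6 libraries were Kcnh1, an Eag-type voltage-gated channel, Kcnk18, a calcineurin-regulated background channel, and Kcnn2, a small-conductance calcium-activated channel. The members together summed to 141, 165 and 119 FPKM in controls and 134, 145 and 178 FPKM in dKO libraries, so the summed level overlapped between groups. Kcnh1 supplied most of that spread; without it, a choice made after its values were seen, the sums were 102, 102 and 102 FPKM against 122, 140 and 121 FPKM.

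**Figure D1:**
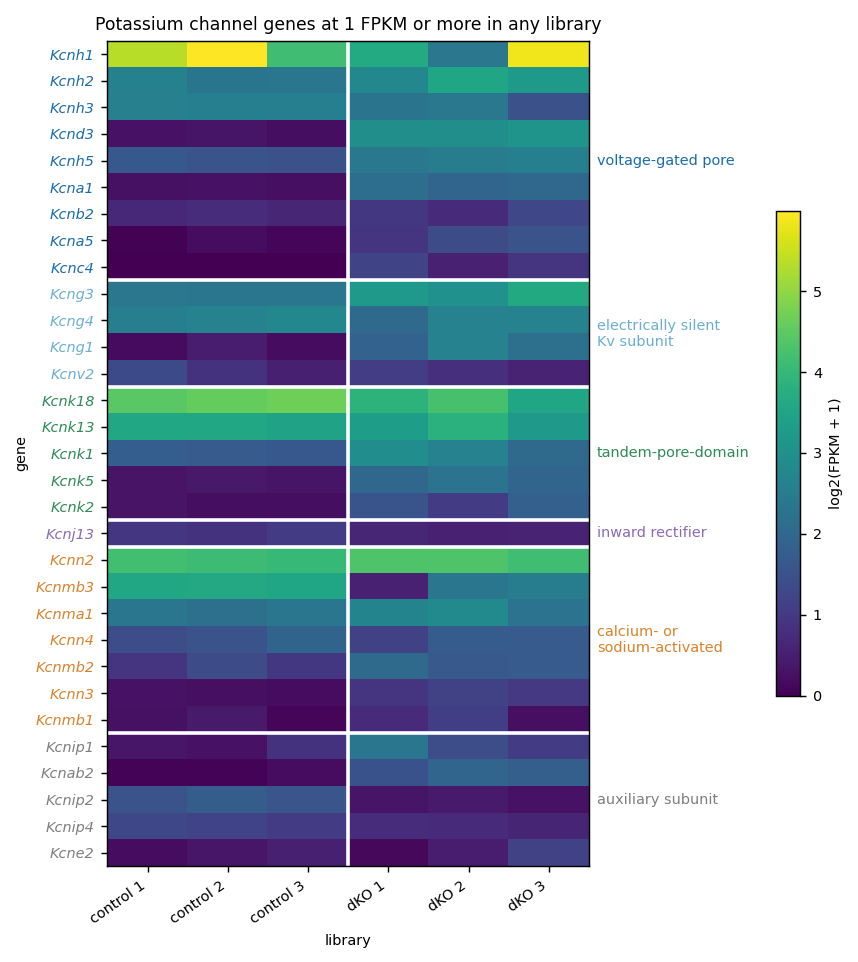
Level of the 31 potassium channel genes that reached 1 FPKM in any library, as log2(FPKM + 1), by channel class (rows) in the 3 control and 3 dKO libraries (columns). Kcnd3, Kcng1, Kcna1, Kcnk5 and Kcnab2 are near 0 in all controls and clearly above it in all dKO libraries, while Kcnip2 shows the opposite order.

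Differences were tested with limma over every gene that reached 1 FPKM in 3 or more libraries, and 23 of the 91 members passed this filter. Of these 23, 11 rose in dKO oocytes (47.8%), 3 fell (13.04%) and 9 were not called. Over all 11334 tested genes 14.0% rose and 7.04% fell at an adjusted p under 0.05. The median log2 difference was 0.73 for the 23 members and -0.019 for all tested genes. The filter bears on these shares and on the median, because a gene under 1 FPKM in the controls entered only if its dKO level was high: 7 members had a control mean under 1 FPKM and all 7 rose, where 77.4% of all such genes rose and 0.00% fell. Among the 16 members with a control mean of 1 FPKM or more, 4 rose (25%) and 3 fell (18.75%), against 7.77% and 7.73% of all such genes. The filter bears on these counts too: Kcnmb2 reached 1 FPKM in only 1 control and passed through its dKO level. Kcnip2 passed only through its control level.

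With no filter, 20310 genes above 0 in any library were tested and the share of members that rose lay closer to that of all genes. Of the 84 members above 0, 15 rose (17.9%) and 1 fell (1.19%), where 9.88% of all genes rose and 2.68% fell. The median difference was 0.036 for members and 0.029 for all genes. Among members with a control mean under 1 FPKM, 13 of 68 rose (19.1%) and none fell, against 14.4% and 0.733% of all such genes, and among the 16 members at or above 1 FPKM, 2 rose (12.5%) and 1 fell (6.25%), against 5.65% and 4.51%. With the replicate number, which marks a shared sequencing lane, as a block, 7 of the 84 rose (8.33%) and 1 fell (1.19%), against 4.55% and 0.532% of all genes. All 3 dKO values lay above all 3 control values for 33 of the 84 members (39.3%) and below them for 6 (7.14%), where the shares over all 20310 genes were 22.3% and 12.5%. Between the fits, 8 members rose in both, 3 only with the filter (Kcnmb2, Kcnk1 and Kcnip1) and 7 only without it (Kcnt2, Kcns3, Kcnj15, Kcnn3, Kcnc4 and Kcna5 among them).

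**Figure D2:**
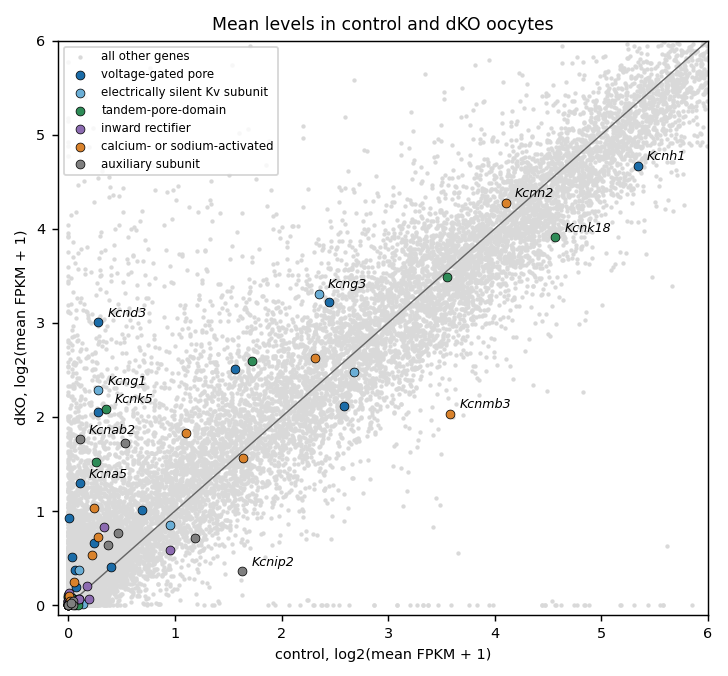
Group mean level as log2(mean FPKM + 1) in the 3 controls (horizontal axis) against the 3 dKO libraries (vertical axis), with genes inside the plotted range in grey and potassium channel genes marked. Genes of higher level lie outside that range and are not drawn. Kcnd3, Kcng1, Kcna1, Kcnk5 and Kcnab2 lie near 0 on the control axis and well above the diagonal, and Kcnip2 and Kcnmb3 lie below it.

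**Figure D3:**
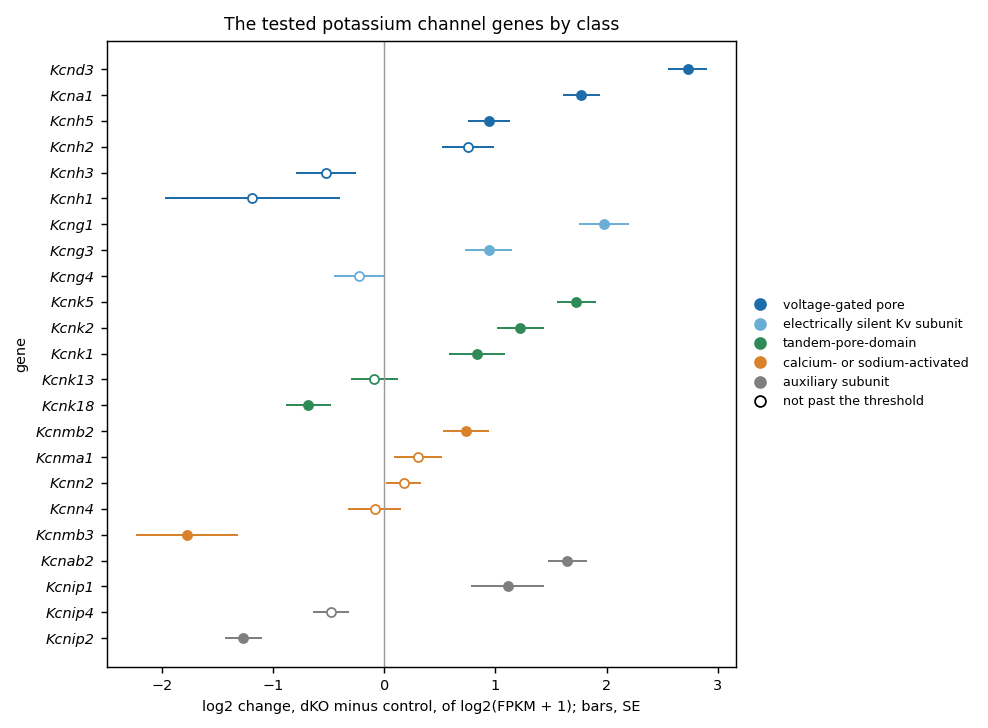
Difference between dKO and control on the log2(FPKM + 1) scale for the 23 tested members, with standard errors (n = 3 and 3) and grouped by channel class; filled points passed an adjusted p under 0.05. Kcnd3 lies farthest to the higher side and Kcnmb3 farthest to the lower side, and no inward rectifier was tested.

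Promoters are shown for 5 of the called members because CpG-dense promoters are the type that Polycomb complexes occupy. RefSeq promoter windows on GRCm38.p6, from 250 bases before to 50 bases after the start, were listed for 67 of the 91 members (73.6%), under the 80% set for a comparison over the whole set, which is therefore void; Kcna1 and Kcng1 are among those without a listing. The windows given are those of Kcnd3 and Kcnk5, the 2 largest rises on the log2(FPKM + 1) scale among members with a listing, and of the 3 members that fell, with each CG dinucleotide in capitals.
Kcnd3, chr3:105451640-105451939, plus strand: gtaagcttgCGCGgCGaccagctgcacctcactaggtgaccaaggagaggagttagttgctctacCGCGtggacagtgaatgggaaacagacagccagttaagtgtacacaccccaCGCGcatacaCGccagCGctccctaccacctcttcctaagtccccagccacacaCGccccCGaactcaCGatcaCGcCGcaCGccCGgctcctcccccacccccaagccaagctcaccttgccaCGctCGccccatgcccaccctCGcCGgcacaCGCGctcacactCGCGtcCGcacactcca
Kcnk5, chr14:20181733-20182032, minus strand: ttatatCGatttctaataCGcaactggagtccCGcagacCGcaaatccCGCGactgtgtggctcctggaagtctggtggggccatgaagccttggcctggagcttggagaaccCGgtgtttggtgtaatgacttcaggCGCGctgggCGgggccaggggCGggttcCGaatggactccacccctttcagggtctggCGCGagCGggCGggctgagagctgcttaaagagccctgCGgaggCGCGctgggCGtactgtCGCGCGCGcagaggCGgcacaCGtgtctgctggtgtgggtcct
Kcnip2, chr19:45816014-45816313, minus strand: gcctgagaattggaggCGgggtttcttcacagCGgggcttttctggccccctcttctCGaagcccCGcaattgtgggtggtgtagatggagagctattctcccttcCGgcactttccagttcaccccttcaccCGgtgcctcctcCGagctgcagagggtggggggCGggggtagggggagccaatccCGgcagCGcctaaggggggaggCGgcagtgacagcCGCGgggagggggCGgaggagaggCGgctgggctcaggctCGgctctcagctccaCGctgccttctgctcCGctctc
Kcnk18, chr19:59219398-59219697, plus strand: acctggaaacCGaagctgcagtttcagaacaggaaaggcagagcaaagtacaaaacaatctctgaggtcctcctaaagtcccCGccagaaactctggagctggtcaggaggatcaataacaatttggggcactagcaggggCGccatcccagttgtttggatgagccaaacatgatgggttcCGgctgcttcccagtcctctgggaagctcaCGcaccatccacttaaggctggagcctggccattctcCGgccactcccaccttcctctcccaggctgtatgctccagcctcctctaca
Kcnmb3, chr3:32491920-32492219, minus strand: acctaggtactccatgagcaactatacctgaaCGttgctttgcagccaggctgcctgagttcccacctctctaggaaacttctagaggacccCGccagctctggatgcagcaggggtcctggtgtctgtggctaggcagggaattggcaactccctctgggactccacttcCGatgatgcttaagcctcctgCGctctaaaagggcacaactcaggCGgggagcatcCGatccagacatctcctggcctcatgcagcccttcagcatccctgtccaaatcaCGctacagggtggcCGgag
The sequence CG, which reads the same on both strands, occurred 25 times in the Kcnd3 window and 26 times in that of Kcnk5. CG occurred 18 times in the window of Kcnip2, 6 times in that of Kcnk18 and 8 times in that of Kcnmb3. The Kcnd3 count was higher than that of 79.8% of the 27025 genes with a listing, at 1 window per gene, and the Kcnip2 count than that of 67.9%. The median count was 8 for all genes with a listing and 22 for tested genes with a listing. Among the other members that rose, Kcng3 had 49, Kcnk2 33, Kcnab2 25, Kcnh5 17, Kcnip1 16, Kcnk1 10 and Kcnmb2 9. Among tested members not called, Kcnma1 had 36, Kcnh1 27, Kcnh2 19, Kcnk13 9, Kcnip4 7, Kcnn4 6 and Kcng4 4. For genes with several listed starts, such as Kcnk2 (4), Kcnab2 (3) and Kcnip1 (3), the start with the most CG was counted. A window with 15 or more CG was found for 37.1% of all genes with a listing and for 74.4% of tested genes with a listing. The share was 68.9% for tested genes that rose and 63.6% for those that fell. The files measure no chromatin mark or factor at these windows.

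Among the 29 voltage-gated pore genes, 6 were tested, 3 rose (Kcnd3, Kcna1 and Kcnh5) and none fell; Kcnd3 and Kcna1 passed the filter only through their dKO level. With no filter 6 of 28 rose and none fell, against 9.88% and 2.68% of all genes. The median log2 difference was 0.051, and 0.029 for all genes. Kcnd3, whose promoter window is printed above, encodes a Shal-type pore that carries transient, rapidly inactivating outward current in heart and brain. It was measured at 0.226, 0.256 and 0.161 FPKM in controls and 6.76, 6.77 and 7.62 FPKM in dKO libraries. Every control lay near 0 and the 3 dKO libraries were close together, with no overlap. The ratio of group means was 32.9 and the difference 2.73 ± 0.18 on the log2(FPKM + 1) scale (limma adjusted p = 2.70e-05), a scale that understates the change of genes low in a group. An antisense gene, Kcnd3os, overlaps its exons and was listed at 0, 0 and 0 FPKM in controls and 0.0549, 0 and 0.0335 FPKM in dKO; whether counting used strand is not given in the sources used here. Exons of 21 of the 91 members overlap a gene on the other strand, and among those described here these also include Kcnh3, Kcnip4, Kcnj15, Kcnk1, Kcnk2, Kcnma1, Kcnn2 and Kcnt2.

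Kcna1 encodes a Shaker-type delayed rectifier known for limiting excitability in axons. Its level was 0.213, 0.231 and 0.183 FPKM in controls and 3.49, 2.89 and 3.03 FPKM in dKO libraries, again with no overlap, a ratio of 14.99 (log2 difference 1.77 ± 0.17, limma adjusted p = 0.000142). Its neighbours in the genome, Kcna5 and Kcna6, differed in level from it. Kcna5, a Shaker-type pore of the heart atrium, failed the filter and was measured at 0.0230, 0.146 and 0.0676 FPKM in controls and 0.903, 1.58 and 1.89 FPKM in dKO libraries. With no filter it rose by 1.17 ± 0.17 on the log2 scale (limma adjusted p = 0.0122), a call lost when any 1 control was left out (0.0637 to 0.0749). Kcna6 did not exceed 0.0425 FPKM in any library.

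The Kcnh genes, of the Eag family, differed among themselves. Kcnh5, an Eag-type pore, was at 2.14, 1.91 and 1.80 FPKM in controls and 4.25, 4.76 and 5.02 FPKM in dKO libraries. The groups did not overlap and the rise was 0.94 ± 0.19 on the log2 scale (limma adjusted p = 0.00753). Kcnh2, the hERG channel of cardiac repolarisation, was at 5.16, 4.04 and 4.12 FPKM in controls and 5.93, 10.5 and 8.52 FPKM in dKO libraries. All dKO values exceeded all controls, but the difference of 0.75 ± 0.24 missed the threshold (limma adjusted p = 0.0526) and passed it when dKO 1 was left out (0.0192), with median-ratio scaling (0.0386), with array weights (0.0399) and with robust moderation (0.0488).

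Kcnh1, the founding mammalian Eag channel, had the highest mean of all members and the widest spread within groups, at 39.4, 62.5 and 16.9 FPKM in controls and 11.7, 4.22 and 57.5 FPKM in dKO libraries. The dKO 3 value lay among the controls and the other two dKO values below them all. The difference was -1.19 ± 0.79 (limma adjusted p = 0.311), and without dKO 3 it was -2.13, which passed (adjusted p = 0.0314). Kcnh3, an Elk-type pore, was at 5.07, 5.01 and 4.99 FPKM in controls and 3.97, 4.26 and 1.81 FPKM in dKO libraries, with no overlap but a difference of -0.52 ± 0.27 that was not called (limma adjusted p = 0.192). Exons of Mcrs1 overlap it on the other strand, and Mcrs1 was at 10.8, 11.3 and 10.05 FPKM in controls and 8.86, 12.7 and 2.67 FPKM in dKO libraries, so that dKO 3 was the lowest library for both genes.

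Lower-level pores of the Shaw and Shab types were read only without the filter. Kcnc4, a Shaw-type pore of fast-spiking cells, was listed at 0, 0 and 0.0112 FPKM in controls and 1.35, 0.469 and 0.898 FPKM in dKO libraries. Its rise of 0.90 ± 0.17 (limma adjusted p = 0.0246) was lost with the replicate block (0.0565), without any 1 control (0.104 to 0.108) and without dKO 3 (0.0598). Kcnb2, a Shab-type delayed rectifier, was at 0.580, 0.697 and 0.571 FPKM in controls and 0.962, 0.673 and 1.41 FPKM in dKO libraries, which overlapped (difference 0.30 ± 0.16, limma adjusted p = 0.281 with no filter).

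**Figure D4:**
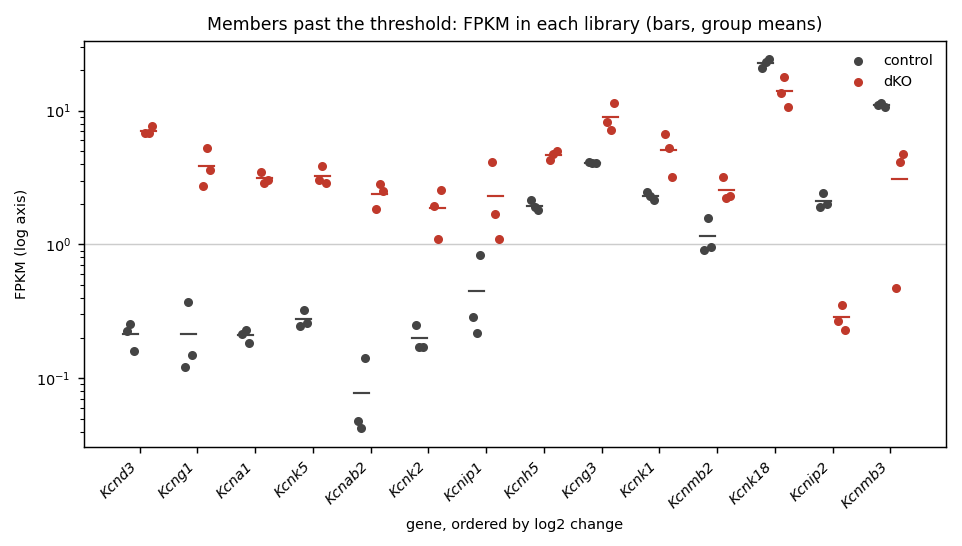
FPKM in each library (log axis) for the 14 called members, with points for the 3 control and 3 dKO libraries and bars at the group means. The groups are separate for all 14 genes; the ratio of group means is highest for Kcnd3 (32.9), Kcnab2 (31.1) and Kcng1 (18.1), and 1 dKO library of Kcnmb3 lies far below the other two.

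The summed level of the electrically silent subunits was higher in every dKO library (15.8 to 21.2 FPKM) than in every control (10.8 to 11.04 FPKM). The higher sum lay mainly in Kcng1 and Kcng3, while the means of Kcng4, Kcnv2, Kcnv1 and Kcnf1 were lower in dKO. Of 10 genes, 3 were tested, 2 rose (Kcng1 and Kcng3) and none fell. Kcng1 passed the filter only through its dKO level. With no filter 3 of 10 rose and none fell, against 9.88% and 2.68% of all genes. The median log2 difference of the class was then 0.028, and 0.029 for all genes. Kcng1, a modifier of Shab-type channels, was at 0.122, 0.371 and 0.149 FPKM in controls and 2.72, 5.30 and 3.60 FPKM in dKO libraries. The lowest dKO library exceeded the highest control several times over, and the ratio of means was 18.1 (log2 difference 1.98 ± 0.23, limma adjusted p = 0.000450). Kcng3 was already present in controls, at 4.16, 4.07 and 4.06 FPKM, and reached 8.24, 7.11 and 11.4 FPKM in dKO libraries. The controls were nearly identical and all lay below the dKO values, with a rise of 0.94 ± 0.22 (limma adjusted p = 0.0151) that was lost under quantile normalization (0.0514) and without any 1 control (0.0603 to 0.0660).

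Kcng4, the third tested silent subunit, overlapped between groups, at 4.93, 5.35 and 5.997 FPKM in controls and 3.20, 5.28 and 5.25 FPKM in dKO libraries (difference -0.23 ± 0.23, limma adjusted p = 0.513). Kcnb2, a Shab pore of the type with which these subunits assemble, had mean levels of 0.616 FPKM in controls and 1.01 FPKM in dKO libraries. Kcns3, another silent subunit, was under 1 FPKM throughout, at 0.0844, 0.0801 and 0.0473 FPKM and 0.310, 0.330 and 0.234 FPKM, and rose with no filter by 0.27 ± 0.042 (limma adjusted p = 0.0144). That call was lost under quantile normalization (0.135), with the replicate block (0.0506) and without any 1 control (0.0640 to 0.0731).

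Tandem-pore-domain channels carry background potassium current that holds the resting potential, and 5 of the 14 genes were tested: 3 rose (Kcnk5, Kcnk2 and Kcnk1), 1 fell (Kcnk18) and 1 was not called. Kcnk5 and Kcnk2 passed the filter only through their dKO level. With no filter 2 of 13 rose and none fell, against 9.88% and 2.68% of all genes. Kcnk5, an acid-sensitive channel of epithelia, was at 0.244, 0.327 and 0.259 FPKM in controls and 3.03, 3.86 and 2.87 FPKM in dKO libraries. The groups were far apart, with a ratio of 11.7 (log2 difference 1.73 ± 0.18, limma adjusted p = 0.000225), while Kcnk16, its neighbour in the genome, was listed at 0 in all libraries. Kcnk2, a channel gated by membrane stretch and lipids, was at 0.252, 0.173 and 0.172 FPKM in controls and 1.93, 1.11 and 2.55 FPKM in dKO libraries. Every dKO value lay above the controls but they spread more than for Kcnk5, and the rise of 1.22 ± 0.21 (limma adjusted p = 0.00393) was lost under quantile normalization (0.135).

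Kcnk1, the founding member of the family, was at 2.45, 2.29 and 2.15 FPKM in controls and 6.65, 5.27 and 3.21 FPKM in dKO libraries. The dKO 3 library was closest to the controls, and the rise of 0.83 ± 0.25 (limma adjusted p = 0.0447) was lost without any 1 control (0.116 to 0.142), without dKO 1 or dKO 2 (0.0858 to 0.101), with no filter (0.0987) and under quantile normalization (0.121). Kcnk1 and Kcnk2 share exon positions with antisense-strand genes (Gm45875 and A430027H14Rik), so their reads could be mixed where strand is not used.

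Kcnk18 was the most abundant tandem-pore gene in the controls, at 20.95, 22.9 and 24.2 FPKM, and was at 13.6, 17.9 and 10.6 FPKM in dKO libraries. All dKO values lay below all controls, and the fall of -0.68 ± 0.20 (limma adjusted p = 0.0442) was close to the threshold. It was lost without any 1 control (0.106 to 0.161), without dKO 1 or dKO 3 (0.0628 to 0.0823), with no filter (0.0761), with the filter at 5 FPKM (0.0543) and with array weights (0.0522). Kcnk13, a halothane-inhibited channel, overlapped between groups at 11.04, 11.1 and 10.01 FPKM and 9.05, 13.3 and 8.24 FPKM (difference -0.09 ± 0.21, limma adjusted p = 0.787). The class as a whole summed to 35.2 to 36.98 FPKM in controls and 27.6 to 41.7 FPKM in dKO libraries, which overlap.

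In the calcium- and sodium-activated class, the pore genes present in controls were not called and the beta subunits of the large-conductance channel moved in opposite directions. Of 12 genes, 5 were tested, 1 rose (Kcnmb2), 1 fell (Kcnmb3) and 3 were not called. Kcnmb2 reached 1 FPKM in only 1 control, so it passed the filter through its dKO level. With no filter 2 of 11 rose and none fell, against 9.88% and 2.68% of all genes. Kcnmb3 was at 11.03, 11.3 and 10.6 FPKM in controls and 0.471, 4.10 and 4.72 FPKM in dKO libraries. The controls were tight, all dKO values lay below them, and dKO 1 lay well below the other two. The fall was -1.78 ± 0.46 on the log2 scale (limma adjusted p = 0.0250) and was lost with no filter (0.0885), with a pseudocount of 0.1 (0.0512) and without any 1 control (0.0705 to 0.0755).

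Kcnmb2, the inactivating beta subunit, was at 0.906, 1.57 and 0.964 FPKM in controls and 3.18, 2.21 and 2.31 FPKM in dKO libraries, separated but close. Its rise of 0.73 ± 0.21 (limma adjusted p = 0.0363) was lost without any 1 control (0.0552 to 0.145), without dKO 1 (0.0822), with no filter (0.0863), with array weights (0.0892) and under quantile normalization (0.242). Kcnma1, the pore both beta subunits modulate, was at 4.12, 3.63 and 4.14 FPKM and 5.49, 6.20 and 3.87 FPKM, which overlapped (difference 0.30 ± 0.22, limma adjusted p = 0.351).

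Of the calmodulin-gated pores, Kcnn2 was the highest, at 17.02, 16.3 and 15.2 FPKM in controls and 19.2, 19.2 and 16.8 FPKM in dKO libraries (difference 0.17 ± 0.16, limma adjusted p = 0.460). Exons of A330093E20Rik overlap it on the other strand, and that gene fell from 17.7 ± 2.24 to 9.88 ± 2.46 FPKM (mean ± SD, n = 3 and 3; limma adjusted p = 0.0298, and 0.0583 with no filter). Without strand the reads of the pair cannot be told apart. Kcnn4, the intermediate-conductance channel, was at 1.69, 1.88 and 2.80 FPKM and 1.22, 2.36 and 2.29 FPKM and overlapped (limma adjusted p = 0.822). Kcnn3, a small-conductance relative, failed the filter, at 0.226, 0.182 and 0.145 FPKM in controls and 0.906, 1.23 and 0.985 FPKM in dKO libraries. Its groups did not overlap, and with no filter it rose by 0.78 ± 0.094 (limma adjusted p = 0.00634), which was lost when control 2 was left out (0.0508). Kcnt2, a sodium-activated pore, stayed at or under 0.253 FPKM and rose with no filter (limma adjusted p = 0.0305), which was lost under quantile normalization (0.405), with the replicate block (0.0763) and without any 1 control (0.109 to 0.113).

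Auxiliary subunits changed in both directions: of 11 genes, 4 were tested, 2 rose (Kcnab2 and Kcnip1), 1 fell (Kcnip2) and 1 was not called. Kcnab2 and Kcnip1 passed the filter only through their dKO level, and Kcnip2 only through its control level. With no filter 1 of 9 rose and 1 fell, against 9.88% and 2.68% of all genes. Kcnab2 encodes a beta subunit with an aldo-keto reductase fold that binds Shaker-type pores. It was at 0.0479, 0.0424 and 0.141 FPKM in controls and 1.84, 2.84 and 2.502 FPKM in dKO libraries. All 3 controls were near 0 and the ratio of means was 31.1 (log2 difference 1.65 ± 0.18, limma adjusted p = 0.000313). Kcnab2 and Kcna1, subunit and pore of the same channel type, both rose, and both passed the filter only through their dKO level. With no filter 2 of 7 Kcna genes and 1 of 3 Kcnab genes rose, and none fell, against 9.88% and 2.68% of all genes. These counts are too small to describe the families.

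The Kcnip genes encode calcium-binding proteins that assemble with Shal-type pores such as Kcnd3. Kcnip2 was at 1.89, 2.41 and 1.99 FPKM in controls and 0.270, 0.354 and 0.230 FPKM in dKO libraries. The groups were well separated, the control mean was 7.37 times the dKO mean, and the fall was -1.27 ± 0.16 (limma adjusted p = 0.000832). Kcnip1 moved the other way, at 0.286, 0.217 and 0.840 FPKM in controls and 4.11, 1.69 and 1.105 FPKM in dKO libraries. Control 3 and dKO 3 came close to each other, and the rise of 1.11 ± 0.33 (limma adjusted p = 0.0416) was lost without any 1 control (0.0560 to 0.137), without dKO 1 or dKO 2 (0.0628 to 0.0726), with no filter (0.117) and under quantile normalization (0.230). Kcnip4 was at 1.45, 1.29 and 1.09 FPKM and 0.705, 0.655 and 0.546 FPKM, without overlap, and its difference of -0.48 ± 0.16 missed the threshold (limma adjusted p = 0.0689) but passed it under quantile normalization (0.00578). In the dKO libraries the Shal pore Kcnd3 thus stood at a mean of 7.05 FPKM beside 2.30 FPKM of Kcnip1, 0.285 FPKM of Kcnip2 and 0.636 FPKM of Kcnip4, and in controls at 0.214 FPKM beside 0.448, 2.10 and 1.28 FPKM in the same order.

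Inward rectifiers were scarcely expressed in either genotype: none of the 15 genes passed the filter, and the class summed to 1.17 to 1.97 FPKM in controls and 1.59 to 2.05 FPKM in dKO libraries. Kcnj13, an epithelial rectifier, had the highest mean of the class, at 0.927, 0.839 and 1.05 FPKM and 0.552, 0.454 and 0.493 FPKM. All its dKO values lay below the controls, but the difference of -0.37 ± 0.098 was not called with no filter (limma adjusted p = 0.0654), though it passed there under quantile normalization (0.0183). Kcnj15 was at 0.401, 0.111 and 0.282 FPKM and 0.808, 0.857 and 0.678 FPKM and rose with no filter by 0.50 ± 0.11 (limma adjusted p = 0.0381), a call lost under quantile normalization (0.389), with a pseudocount of 0.1 (0.0864), with the replicate block (0.0954), without any 1 control (0.0699 to 0.129) and without dKO 1 or dKO 2 (0.0769 to 0.0908).

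Other genes of potassium handling and excitability showed counts in both directions, to be read beside the 14.0% of all tested genes that rose and the 7.04% that fell. Of 13 further potassium channel partners, 3 were tested and 1 rose, Lrrc55, an auxiliary gamma subunit of the large-conductance channel, from 0.525 ± 0.312 to 1.92 ± 0.122 FPKM (mean ± SD, n = 3 and 3; limma adjusted p = 0.00995, 0.0567 without control 2 and 0.101 under quantile normalization). Lrrc55 was under 1 FPKM in every control and passed the filter only through its dKO level. Of all tested genes with a control mean under 1 FPKM, 77.4% rose. With no filter 1 of 11 partners rose and none fell, against 9.88% and 2.68% of all genes. Dpp6 and Dpp10, transmembrane partners of Shal pores, were not called, at 5.57 ± 0.214 and 5.61 ± 1.84 FPKM and at 8.48 ± 0.421 and 10.9 ± 1.49 FPKM. Of 27 sodium-potassium pump and cation-chloride cotransporter genes, 12 were tested, 3 rose (Fxyd6, Atp1b1 and Atp4a) and 1 fell (Slc12a8). Atp4a was under 1 FPKM in every control and passed the filter only through its dKO level. With no filter 4 of 26 rose and none fell. Fxyd6, a small regulator of the pump, went from 2.23 ± 0.613 to 32.5 ± 6.78 FPKM (limma adjusted p = 3.26e-05). Atp1b1, a beta subunit of the pump, went from 15.8 ± 3.34 to 36.7 ± 5.70 FPKM (limma adjusted p = 0.003995). Another beta subunit, Atp1b3, had a higher mean than Atp1b1 in both groups and was not called. Its control mean was 64.5 ± 2.64 FPKM and its dKO mean 64.9 ± 6.78 FPKM (limma adjusted p = 0.989). The fall of Slc12a8 (limma adjusted p = 0.0346) was lost with the replicate block (0.0510), without any 1 control (0.0976 to 0.144), without dKO 1 or dKO 2 (0.0591 to 0.0688) and with no filter (0.0717). The rise of Atp4a (limma adjusted p = 0.0196) was lost under quantile normalization (0.266) and without control 1 or control 3 (0.0739 to 0.0866).

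Of 50 other voltage-gated cation channel genes, 14 were tested, 3 rose (Cacna2d2, Cacng7 and Cacnb2) and 1 fell (Hvcn1). Cacna2d2, an alpha-2-delta subunit of calcium channels, went from 0.0571 ± 0.0318 to 2.40 ± 0.410 FPKM (limma adjusted p = 0.000202), a control level near 0 like that of Kcnd3. Cacna2d2 too passed the filter only through its dKO level. Hvcn1, the voltage-gated proton channel, fell from 21.9 ± 3.82 to 6.29 ± 1.82 FPKM (limma adjusted p = 0.00125). The calls of Cacnb2 and Cacng7 (limma adjusted p = 0.0353 and 0.0380) were lost with no filter (0.0707 and 0.103), for Cacnb2 under quantile normalization (0.0591), and without single libraries: Cacnb2 without any 1 control or dKO 3 (up to 0.147) and Cacng7 without control 1, control 2, dKO 2 or dKO 3 (up to 0.132). With no filter, 8 of 47 rose and 1 fell, where 9.88% of all genes rose and 2.68% fell. Those 8 included Hcn2, Hcn3 and Hcn4, hyperpolarization-activated pacemaker channels that pass both potassium and sodium, named here after their values were seen: control and dKO means were 0.0182 and 0.223 FPKM for Hcn2, 0.0344 and 0.209 FPKM for Hcn3, and 0.0293 and 0.417 FPKM for Hcn4.

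Of the 14 calls with the filter, 7 held under every alternative in which the gene was tested: Kcnd3, Kcna1, Kcnk5, Kcng1, Kcnab2 and Kcnh5 among the rises and Kcnip2 among the falls. The other 7 were each lost under at least 1 alternative. Where a library was left out, the genes tested were still those that passed the filter in all 6 libraries. Kcnd3, Kcna1, Kcnk5, Kcng1 and Kcnab2 had passed it only through their dKO level, and Kcnip2 only through its control level. Leaving out a library therefore did not test whether these genes pass the filter. Over all 214 combinations of a called member and an alternative, the call was unchanged in 175, missed the threshold in 39 and changed direction in 0. Under quantile normalization, which forces the libraries to 1 distribution, 6 members rose and 4 fell, against 10.5% and 9.47% of all tested genes.

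**Figure D5:**
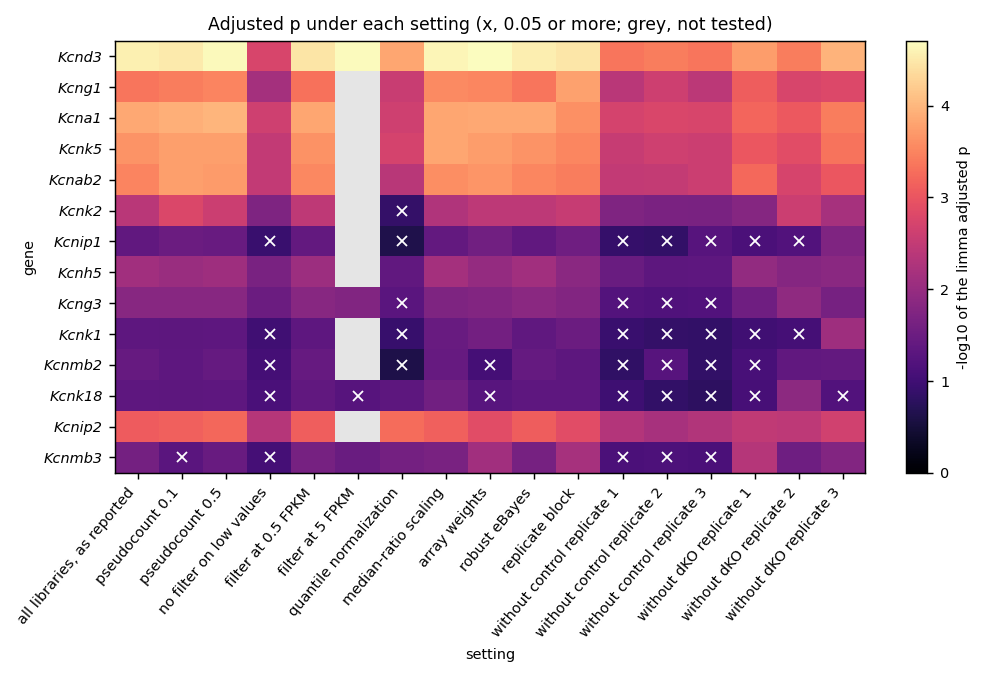
Adjusted p on a −log10 scale (colour) for the 14 called members (rows) under each alternative setting (columns); a cross marks an adjusted p of 0.05 or more and grey a gene not tested. The rows of Kcnd3, Kcna1, Kcnk5, Kcng1, Kcnab2, Kcnh5 and Kcnip2 hold no cross, and crosses gather in the columns that leave out a control.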

How the data were processed

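RNA from pooled oocytes was amplified with the Ovation v2 kit, per the labels' protocols; the submitters' processing notes name TopHat2 2.0.11, Cufflinks 2.0.2 and mm9, without roles. The deposited table gives FPKM per gene as the authors computed it; no source used here states read depth or strand handling. From 24525 rows, 497 exact repeats were removed, which left 24028 genes. Genes that reached 1 FPKM in 3 or more libraries (11334) were tested on log2(FPKM + 1) with limma 3.58.1 in R 4.3.3 (empirical Bayes with a trend, two-sided, Benjamini-Hochberg over all tested genes, threshold 0.05), all 6 libraries, no block. The code was tested on simulated data. Precision rests on 3 libraries per group.

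Members, classes and lists were chosen with earlier results of these data known. Named genes were all called members, per class the member with the highest mean and up to 2 uncalled members with the largest difference, members the filter removed with a group mean of 1 FPKM or more in only 1 group, and up to 3 called genes in each direction per other list. Others (Kcnh3, Kcnn4, Kcnc4, Kcnj15, Kcns3, Kcnt2, Kcnf1, Kcnv1, Kcnv2, Atp1b3 and the partners and neighbours of members) were named after their values were seen. The replicate number marks a shared flow-cell lane per the labels. Deviations from the group means correlated only weakly between same-numbered libraries (r = 0.147, 0.107 and 0.0637), against r of -0.110 to 0.0179 between libraries of unlike number. Alternatives were other pseudocounts (0.1 and 0.5), filters (none, 0.5 and 5 FPKM) and scalings, array weights, robust moderation, the block and leaving out each library; those that combine no filter with another choice were chosen after seeing the data. Some results on single genes are not reported here.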

Additional observations from a re-analysis of the deposited data

How the results depend on the processing

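Each alternative changed 1 choice, except that those for the fit with no filter kept it unfiltered. Leaving out a library kept the genes chosen on all 6 libraries. With the filter, 1587 genes rose and 798 fell, and with the replicate block, which pairs libraries by lane, 1681 and 887, with 11 members higher and 3 lower as without it; among the named genes it ended the filtered call of Slc12a8 only. With the filter at 5 FPKM, 655 genes rose, and 2 members rose and 1 fell. Quantile normalization gave 6 members higher, and moved the share of rises among all calls from 66.5% to 52.6%. With no filter 1 member fell and 78.6% of calls were rises. Leaving out each library gave 7 to 11 members higher, 1 to 3 lower, and 231 to 1465 genes lower: 231 to 262 without a control and 1465 without dKO 2. The 3 settings that leave out a control each gave 7 members higher and 1 lower. For the members with no filter (15 higher, 1 lower), the replicate block gave 7 higher, quantile normalization 8 higher and 3 lower, median-ratio scaling 3 lower, and leaving out each library 5 to 18 higher and 1 to 2 lower. No result changed direction in a call. The cause of these changes was not tested. With 3 libraries per group, and FPKM without read counts, counting error of members under 1 FPKM could not be given.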
